A study of Homo sapiens with 4 samples.

Results

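The forkhead box A genes FOXA1, FOXA2 and FOXA3 were followed through ATAC-seq peak lists of human pancreatic progenitors with and without the BET inhibitor I-BET151. Peaks of the 4 lists were merged wherever they overlapped, and every merged region that touched the body of one of the 3 genes or the 50 kb on either side (GENCODE release 44) was taken, which gave 35 of 164301 regions: 10 at FOXA1, 15 at FOXA2 and 10 at FOXA3. The cells came from a single line, the human embryonic stem cell line MEL1 (INS GFP/W in the study's methods, which carries GFP in an INS allele), were differentiated to pancreatic progenitors and were kept in EF6, a DMEM and B27 medium that held EGF at 50 ng/ml, bFGF at 10 ng/ml and the inhibitor 616452 at 10 μM. The control group received DMSO and the treated group received 1 μM I-BET151 for 7 days, with 2 libraries of 50000 cells in each group. The sources used here do not state that the 2 libraries of a group came from separate cultures, so the tests measure only the spread between these libraries, which may be technical. ATAC-seq marks accessible DNA by the insertions of the transposase Tn5, and in such bulk samples fewer open cells and less access per cell cannot be told apart.

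FOXA proteins are winged-helix transcription factors called pioneer factors because they can bind their sites on nucleosomes and make the DNA around them accessible to other factors. FOXA1 and FOXA2 act early in gut endoderm and in the pancreatic bud, where FOXA2 is a regulator of PDX1, and FOXA3 is best known from liver and gut. I-BET151 keeps the bromodomain proteins of the BET family from binding acetylated lysines on chromatin, so the question put to the lists was which accessible regions around the genes of these factors were called, and how strongly, with and without the inhibitor.

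The lists were of unequal size and depth. The DMSO lists held 82568 and 38295 peaks and the I-BET151 lists 84995 and 111324, in the order of their replicate numbers. The reads behind them, solved from the background of each list, numbered 38.7 M and 36.6 M for DMSO and 12.5 M and 16.0 M for I-BET151. This assumes a genome of 2.7 Gb and reads extended to the shortest peak of each list (200 and 233 bp for DMSO, 200 and 256 bp for I-BET151). With the 200 bp of the study's methods the replicate 2 numbers would be higher, so the order within a group is uncertain. The part of depth and list size in the results given here was not tested. Of the pancreatic progenitor markers, NKX6-1, SOX9 and GATA6 had a called start site in all 4 lists, ONECUT1 in all but DMSO replicate 2, and PDX1 in both I-BET151 lists and in 0 DMSO lists. Of 5 pluripotency genes, 2 and 2 were called with DMSO and 1 and 2 with I-BET151: NANOG and POU5F1 in 0 lists, LIN28B in all 4 lists, TDGF1 in both DMSO lists and DPPA4 in I-BET151 replicate 2. The 3 blood markers were called in 0 lists. Liver markers were called for 3 and 2 of 4 genes with DMSO and for 4 of 4 in both I-BET151 lists, endocrine markers for 1 and 0 against 2 and 1 of 4, and mesenchyme markers for 2 of 3 in both DMSO lists against 3 of 3 in both I-BET151 lists. The part of other cell types in the results was not tested.

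The genes lie on 3 chromosomes in hg38, FOXA1 (ENSG00000129514) at chr14:37589552-37596059 on the minus strand, FOXA2 (ENSG00000125798) at chr20:22580998-22585455 on the minus strand and FOXA3 (ENSG00000170608) at chr19:45863989-45873797 on the plus strand. Regions are named here by gene and by the distance of their strongest summit from the canonical start site, with a minus sign for upstream. The first set shows the distal regions on which the results turn, on the plus strand of hg38, with capitals for the motif letters searched: the strongest FOXA1 region, which holds the FOX match among the members, the strongest distal FOXA2 region, a FOXA2 region upstream with HNF6 and AP-1 matches, and a FOXA3 region that lost its call. The first is cut to 30 bases because an annotated untranslated region of MIPOL1 covers it.
FOXA1 +48.2 kb, chr14:37547027-37547056: attcaacactgtGTAAACAccaaagcctta
FOXA2 +21.1 kb, chr20:22563333-22563533: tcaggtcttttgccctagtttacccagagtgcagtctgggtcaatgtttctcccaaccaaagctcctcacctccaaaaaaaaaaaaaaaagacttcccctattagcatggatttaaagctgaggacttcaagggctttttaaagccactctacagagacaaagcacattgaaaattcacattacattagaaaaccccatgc
FOXA2 −32.9 kb, chr20:22617347-22617547: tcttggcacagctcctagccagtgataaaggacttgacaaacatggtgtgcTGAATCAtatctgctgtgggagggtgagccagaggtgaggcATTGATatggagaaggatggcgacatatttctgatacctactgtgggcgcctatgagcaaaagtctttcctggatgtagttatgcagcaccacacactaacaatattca
FOXA3 −16.2 kb, chr19:45848015-45848215: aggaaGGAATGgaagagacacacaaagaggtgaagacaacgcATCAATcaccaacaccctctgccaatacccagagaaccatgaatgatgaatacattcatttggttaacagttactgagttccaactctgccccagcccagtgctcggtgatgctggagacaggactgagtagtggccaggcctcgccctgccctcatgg

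The second set shows the regions near start sites and the strongest FOXA3 region gained with I-BET151, again on the plus strand of hg38, with CpG dinucleotides in capitals. The FOXA3 promoter is given for the 134 bases that end just before the canonical start site, the stretch that is free of annotated untranslated exons. Their CpG counts and GC contents are given with the sequence features.
FOXA1 −0.9 kb, chr14:37596062-37596262: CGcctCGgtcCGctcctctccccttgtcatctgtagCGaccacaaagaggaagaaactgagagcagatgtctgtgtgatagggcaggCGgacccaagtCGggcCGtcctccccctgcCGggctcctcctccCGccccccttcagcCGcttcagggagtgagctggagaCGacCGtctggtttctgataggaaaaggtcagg
FOXA3 −1.0 kb, chr19:45863244-45863444: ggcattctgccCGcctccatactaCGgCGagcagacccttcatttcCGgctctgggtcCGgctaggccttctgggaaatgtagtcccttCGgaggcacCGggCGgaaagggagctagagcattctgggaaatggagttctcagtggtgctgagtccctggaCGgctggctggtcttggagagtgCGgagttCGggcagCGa
FOXA3 promoter, chr19:45864192-45864325: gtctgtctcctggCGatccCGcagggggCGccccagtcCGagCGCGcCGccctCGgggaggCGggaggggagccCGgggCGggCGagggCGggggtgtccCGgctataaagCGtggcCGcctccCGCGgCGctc
FOXA3 −47.0 kb, chr19:45817206-45817406: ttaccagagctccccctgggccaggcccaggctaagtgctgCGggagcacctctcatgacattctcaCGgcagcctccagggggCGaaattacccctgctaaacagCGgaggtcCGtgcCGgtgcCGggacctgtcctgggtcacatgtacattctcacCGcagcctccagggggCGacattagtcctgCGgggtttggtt

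The 3 loci differed in which lists called their regions. A region is called gained here when both I-BET151 lists and no DMSO list held a peak in it, and lost in the opposite case. Of the 35 regions 7 were gained (20%), where 17% of all merged regions were, and 2 were lost (5.71%), where 2.37% of all were. FOXA3 held 5 of the 7 gained regions and both lost ones, FOXA1 and FOXA2 held 1 gained region each and 0 lost, so the share over the 3 genes was near the background while the FOXA3 share, 5 of 10, was above it. Regions called in all 4 lists numbered 2 at FOXA1, 3 at FOXA2 and 3 at FOXA3, together 22.9% of the members beside 15.6% of all regions. The other combinations of lists made up 7 of 10 regions at FOXA1, 11 of 15 at FOXA2 and 0 of 10 at FOXA3, beside 65.1% of all regions. At FOXA3 each region was therefore called alike in both libraries of a group, whereas at FOXA1 and FOXA2 most regions were called in 1 library of a group and missed in the other. No test was made of these differences between loci, whose regions are neighbours and are not independent. Of the 18 regions in other combinations, 11 were called in DMSO replicate 1, 1 in DMSO replicate 2, 5 in I-BET151 replicate 1 and 11 in I-BET151 replicate 2, that is 61.1%, 5.56%, 27.8% and 61.1% beside 46.0%, 7.61%, 25.5% and 54% of all such regions. A single list held 11 of the 18 (61.1%), beside 79.6% of all such regions. At a −log10 p of at least 5, which is the p of 1e-05 given in the study's methods, 6 regions were gained and 0 were lost. Of the 7 gained regions above, 5 reached that value in both I-BET151 lists. The remaining region was FOXA2 +9.4 kb, which counted as gained because its DMSO replicate 1 peak, at a −log10 p of 3.73, was cut. With each list cut to its 38295 strongest peaks, 1 was gained and 0 were lost. The shares of all merged regions at these 2 settings are not given, so these counts have no background beside them.

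**Figure D1:**
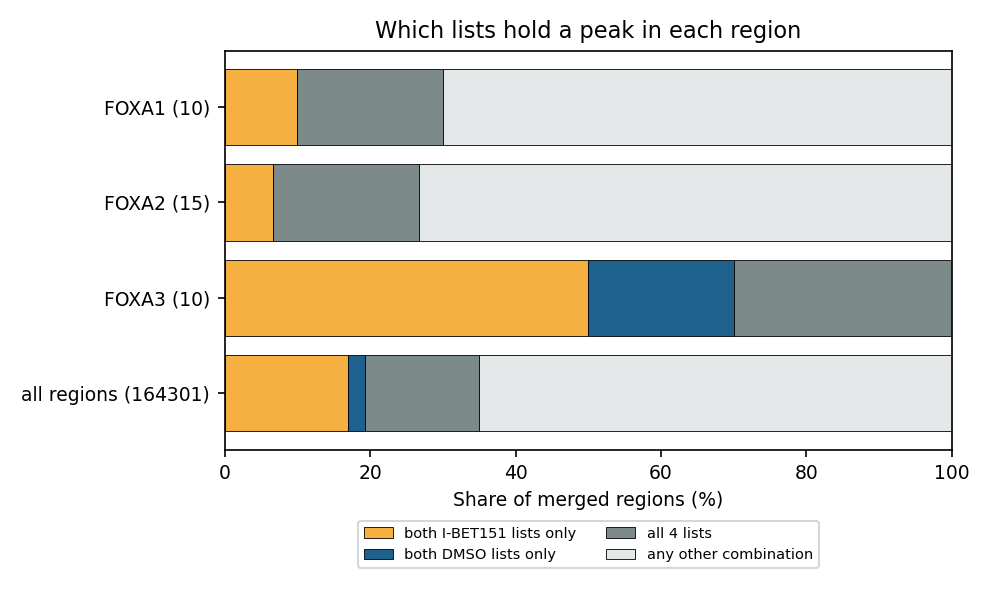
Share of merged regions (%, x axis) at each FOXA gene and over all regions (numbers of regions in brackets on the y axis), by which lists held a peak in them. At FOXA3 5 of 10 regions had peaks from the I-BET151 libraries alone, both of them, beside 17% of all regions, and no FOXA3 region fell in the class of any other combination.

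At FOXA1 the 10 regions spanned the sequence from the distal end of MIPOL1 to the introns of TTC6. The strongest was the +48.2 kb region (chr14:37546464-37547325), whose summit lies in an exon of MIPOL1 annotated as untranslated, and the FOX letters GTAAACA printed above sit 16 bases before that summit. Its fold enrichment over the local background was 9.05 and 6.66 in the DMSO libraries and 12.2 and 12.5 in the I-BET151 libraries. As percentiles of each list's fold values, on which 100 is the strongest peak, it stood at 98.3 and 88.5 with DMSO and at 95.0 and 93.3 with I-BET151. The folds did not overlap between groups and the percentiles did, so the region was near the top of all 4 lists. The pileup (the reads at its summit) was 34 and 28 reads with DMSO and 34 and 60 with I-BET151, from libraries of lower total depth. The region over the start site (chr14:37594291-37596537, with its summit at −0.9 kb) also covers the start of TTC6, the divergent neighbour of FOXA1. Its fold was 4.12 and 3.16 with DMSO and 4.02 and 5.52 with I-BET151. Its percentiles were 57.8 and 17.3 with DMSO and 12.4 and 41 with I-BET151, so the groups overlapped on both scales and each group held a high and a low library. The gained region at −23.7 kb (chr14:37618621-37619123), in an intron of TTC6, was weak, with folds of 3.92 and 4.79 and percentiles of 10.6 and 30.4 in the I-BET151 libraries. A pileup of 7 and 12 reads carried those calls.

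The remaining 7 FOXA1 regions were each called in 1 to 3 lists without a common pattern. The +27.9 kb region stood at percentile 64.2 in I-BET151 replicate 2 and was uncalled elsewhere. The −7.8 kb region stood at percentile 55.9 in the same library and at 11 in DMSO replicate 1. The +20.1 kb and −28.4 kb regions were called in DMSO replicate 1 only, at percentiles 35.4 and 20.6. In the regions just named no call was repeated by the other library of its group. The +11.4 kb region was weak but was called in both I-BET151 libraries, at percentiles 7.52 and 5.31, and in DMSO replicate 2, at 11.6.

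FOXA2, whose locus also carries the long non-coding RNA gene LINC00261, held 15 regions. The region over its start site (chr20:22584126-22585480) had folds of 3.80 and 5.08 with DMSO and 7.93 and 6.79 with I-BET151. Its percentiles were 46.0 and 72.7 with DMSO and 77.4 and 59.5 with I-BET151. Both I-BET151 folds were above both DMSO folds, and the percentiles of the groups overlapped. The +21.1 kb region (chr20:22562573-22563828), in an exon of LINC00261, had folds of 4.33 and 4.03 with DMSO and 7.17 and 9.36 with I-BET151. Its percentiles, 64.9 and 48.7 against 70.8 and 80.6, did not overlap between the groups. The −32.9 kb region (chr20:22617181-22617634), between genes, had folds of 4.18 and 2.84 with DMSO and 6.52 and 8.22 with I-BET151. Its percentiles were 61.9 and 6.36 with DMSO and 64.4 and 72.6 with I-BET151, so 3 libraries lay close together and DMSO replicate 2 lay far below them. In the sequence printed above, the HNF6 letters ATTGAT start 8 bases and the AP-1 letters TGANTCA 49 bases before its summit. HNF6, the product of ONECUT1, is a factor of pancreatic progenitors.

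The gained FOXA2 region at −27.2 kb (chr20:22611378-22611862), also between genes, was weaker than the regions of all 4 lists, with folds of 3.64 and 3.97 and pileups of 6 and 9 reads. The +50.4 kb region was called in 3 lists, at percentiles 35.1 in DMSO replicate 1, 71.5 in I-BET151 replicate 1 and 77.2 in I-BET151 replicate 2, and had no peak in DMSO replicate 2, the list with the fewest peaks. The +9.4 kb region, in an intron of LINC00261, was called in the same 3 lists at percentiles 0.113, 24.6 and 18.2. DMSO replicate 2 called only the 3 regions of all 4 lists at this locus, whereas the other libraries called 10, 7 and 11 of the 15.

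**Figure D2:**
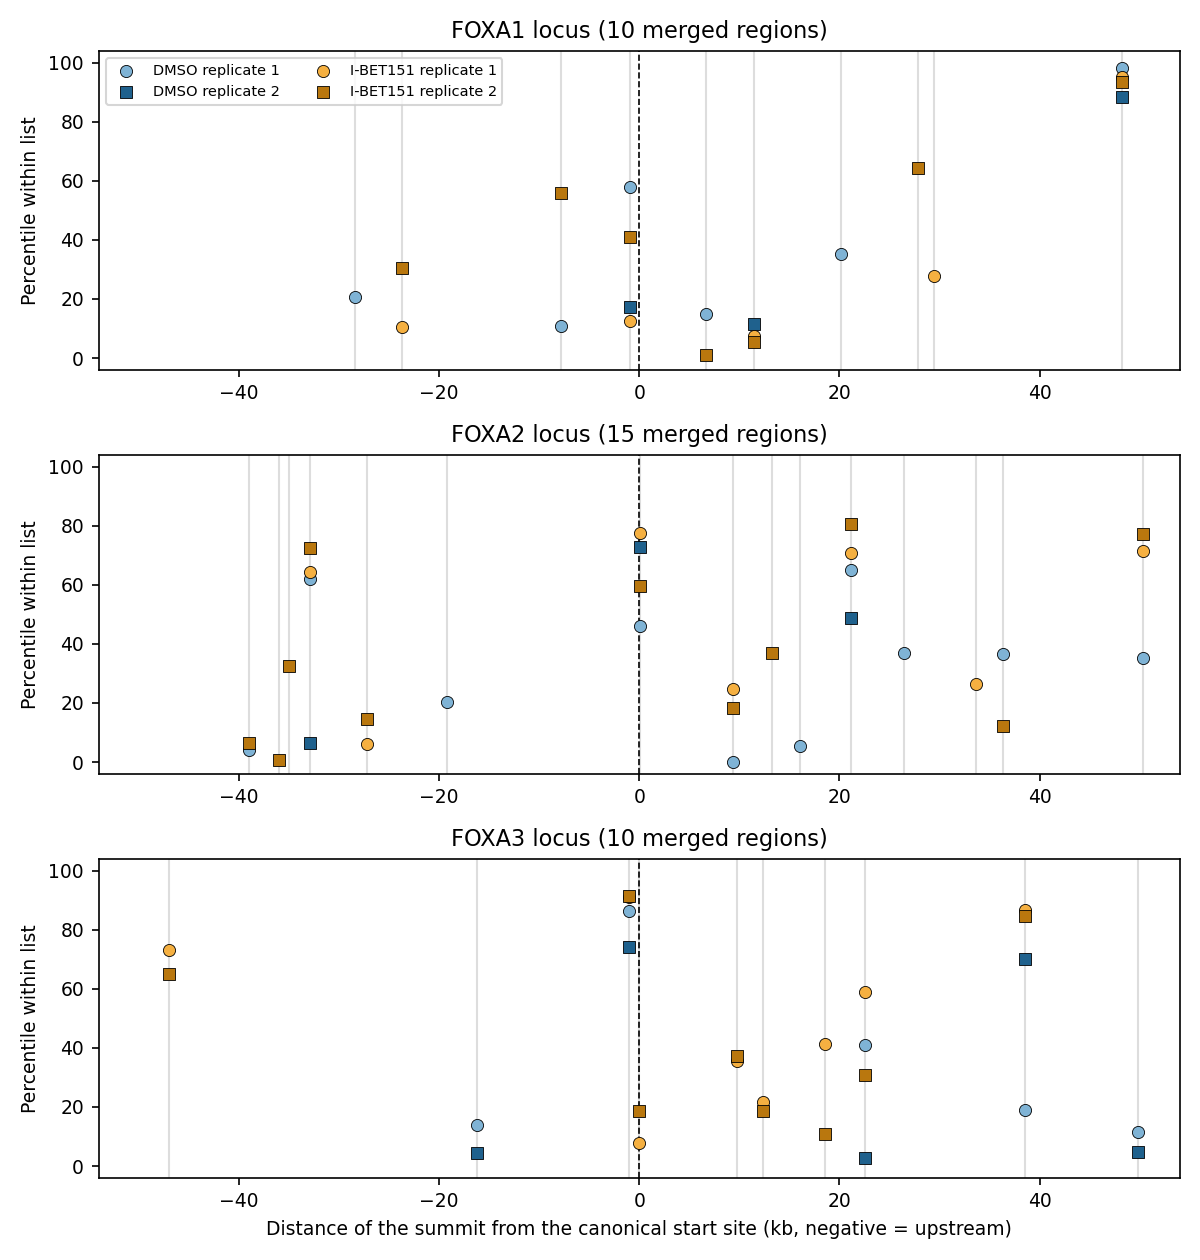
Percentile of the fold enrichment within each peak list (y axis) of every region at the 3 loci against the distance of its summit from the canonical start site of the gene (kb, x axis), 1 point per library that called the region and none where it did not. Vertical grey lines mark the regions and the dashed line the start site. FOXA3 shows 5 regions with both I-BET151 points and no DMSO point, whereas 7 of 10 FOXA1 and 11 of 15 FOXA2 regions carry a point of 1 library in a group and none of its partner.

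At FOXA3 the regions nearest the start site differed in strength and in calls. The −1.0 kb region (chr19:45862523-45863627) covers the start of SYMPK, which is transcribed away from FOXA3 and codes for the scaffold protein symplekin of messenger RNA 3′ end processing. It was strong in every list, with folds of 5.69 and 5.19 for DMSO and 10.7 and 11.8 for I-BET151. Its percentiles of 86.3 and 74.0 against 91.1 and 91.4 did not overlap, and 42 and 36 reads against 49 and 108 made up its pileup. The region over the canonical FOXA3 start itself (chr19:45864136-45864591), which covers the promoter bases printed above, was gained, with no peak in either DMSO list. It was among the weaker peaks of the I-BET151 lists, with folds of 3.70 and 4.24, percentiles of 7.96 and 18.7 and pileups of 16 and 38 reads.

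The strongest gained FOXA3 region was the −47.0 kb region (chr19:45817133-45817588), in SYMPK and over the start of one of its annotated transcripts. Its folds were 7.41 and 7.36, its percentiles 73.2 and 65.0 and its pileups 23 and 30 reads, and neither DMSO list held a peak there. The other 3 gained regions lie downstream of FOXA3, before the neighbouring gene IRF2BP1 or at its end. The +9.8 kb region (chr19:45873863-45874243) had folds of 4.81 and 5.18 and percentiles of 35.4 and 37.1. The +12.4 kb region (chr19:45876601-45877061) had folds of 4.29 and 4.23 and percentiles of 21.7 and 18.7. The +18.6 kb region (chr19:45881874-45883615), the widest at the locus with 1742 bp, had folds of 5.14 and 3.72 and percentiles of 41.2 and 10.7. Apart from the last, the I-BET151 libraries thus gave like folds for the gained regions. At a −log10 p of at least 5 5 FOXA3 regions were gained, and at 10 or more 2 were, without a share of all regions to set beside them. At 10 or more FOXA2 held 3 gained regions.

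Both lost regions were weak. The HNF6 and TEAD letters in the sequence printed for the −16.2 kb region lie within 100 bases of its summit but before the first base of the region itself. The −16.2 kb region in an intron of SYMPK (chr19:45848082-45848492), had folds of 3.09 and 2.75 and pileups of 14 and 13 reads in the DMSO libraries. The +49.8 kb region at NANOS2 (chr19:45913887-45914453) had folds of 3.03 and 2.78 and pileups of 15 and 14 reads. A fold of this size over the deeper DMSO background stood at percentiles of 13.8 and 4.26 for the former and 11.7 and 4.91 for the latter, and neither region was called lost at a −log10 p of at least 5.

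FOXA3 also held 2 regions of all 4 lists over the starts of neighbouring genes. The +22.5 kb region over the start of IRF2BP1 (chr19:45885861-45887057) had folds of 3.65 and 2.66 with DMSO and 6.12 and 4.83 with I-BET151, and its percentiles of 40.8 and 2.58 against 58.9 and 30.9 overlapped. The +38.6 kb region over the start of MYPOP (chr19:45902546-45903397) had folds of 3.21 and 4.94 against 9.59 and 10.1. Its percentiles of 19.0 and 70.0 against 86.7 and 84.7 did not overlap, with DMSO replicate 1 far below the others.

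The 8 member regions called in all 4 lists allowed a test of rank. Their folds did not overlap in 7 of 8, all higher with I-BET151, but the same held for 90.1% of all 25627 regions of all 4 lists, and the opposite for 0 of 8 and 0.242% of all. The median fold over those 25627 regions was itself higher, 8.33 and 10.0 in the I-BET151 libraries against 5.16 and 4.60 in the DMSO libraries. On the percentile scale, taken within each whole list, 4 of 8 had both I-BET151 values above the DMSO values (40.8% of all) and 0 of 8 were lower (10.3% of all). For the test each library's folds were ranked again among the 25627 regions alone and the ranks were turned into normal scores. Through either step a shift can differ in sign from the whole-list percentiles, as it does for the FOXA1 +48.2 kb and FOXA2 start-site regions. In limma on normal scores of these ranks, 0 of 8 passed a Benjamini-Hochberg adjusted p of 0.05 and 0 of 8 had an unadjusted p under 0.05, whereas 3.41% of all regions tested moved up and 1.96% moved down (875 and 503 regions), and 6372 had an unadjusted p under 0.05.

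With 2 libraries per group a missed threshold does not show that a rank stayed the same. In simulated normal scores 200 of 25627 regions were shifted, and all regions had the same SD of 0.44, the mean spread between these replicates. There limma recovered 0.5% of added shifts of 1 unit and 81.5% of shifts of 2. The data gave more calls (875 and 503), which loosens the adjusted threshold, and the spread may differ between regions. These shares therefore do not give the power of the test in the data. In units of the normal score, I-BET151 minus DMSO, limma gave 0.90 ± 0.50 (SE, n = 2 per group, adjusted p = 0.274) for the FOXA3 +38.6 kb region and 0.72 ± 0.44 (adjusted p = 0.321) for the FOXA2 −32.9 kb region. The FOXA1 start-site region had the lowest shift, −0.72 ± 0.40 (adjusted p = 0.273), and the FOXA1 +48.2 kb region stood at −0.44 ± 0.40 (adjusted p = 0.516). The other 4 lay between −0.24 and 0.40, with adjusted p from 0.641 to 0.791. Both FOXA1 shifts and that of the FOXA2 start-site region were thus below 0 and the other 5 above it, none past the threshold. On the log2 fold without centring, where the median shift of all regions was 0.83, limma called 7 of 8 higher with I-BET151 beside 19604 higher and 22 lower of the 25627. On the log2 fold centred within each library it called 0 of 8, beside 597 higher and 1109 lower.

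**Figure D3:**
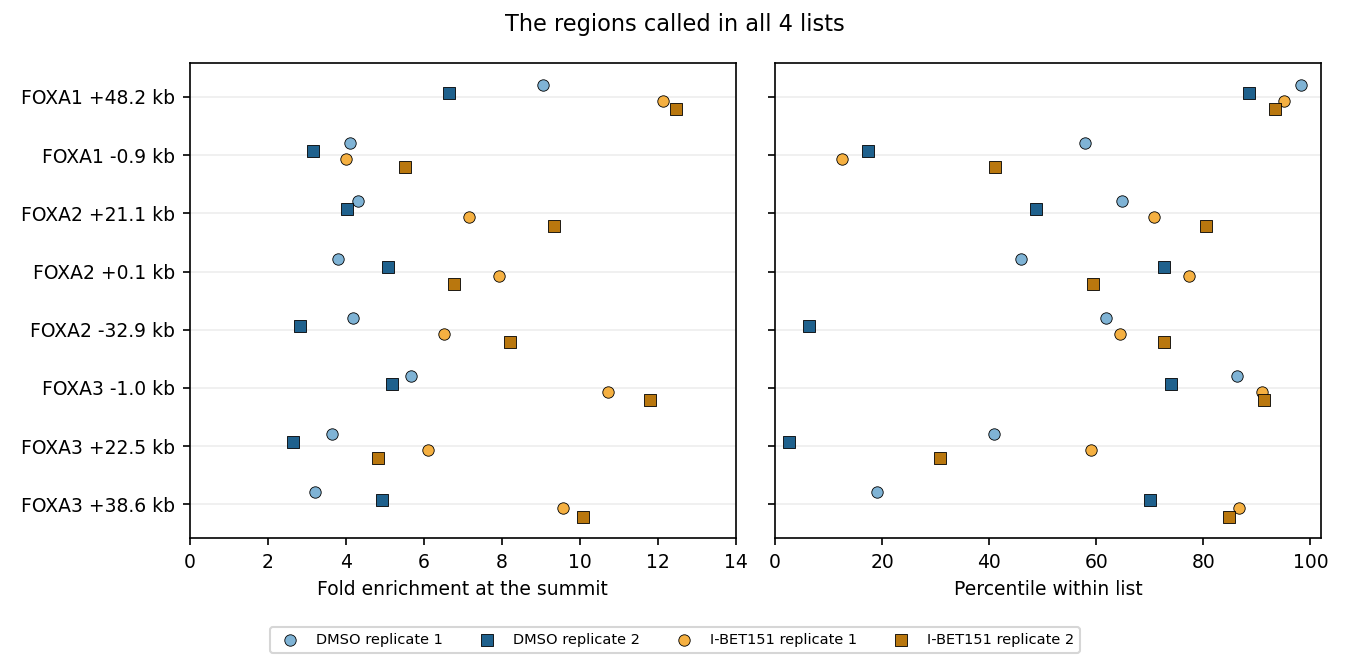
Fold enrichment at the summit (left, ratio to the local background) and percentile within the list (right) of the 8 regions called in all 4 lists, 1 point per library, named by gene and distance from the canonical start site. On the fold scale the I-BET151 points lie right of the DMSO points in 7 of 8 regions, and on the percentile scale in 4 of 8.

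A locus score, the mean percentile over all regions of a gene with 0 for a region without a peak, was compared between the groups. FOXA3 scored 17.2 and 15.6 in the DMSO libraries and 41.6 and 35.7 in the I-BET151 libraries, that is 16.4 ± 1.12 and 38.7 ± 4.17 (SD, n = 2 each). The difference of 22.3 was larger than the spread within either group, the groups did not overlap, and the exact permutation test gave p = 0.333, the smallest that 2 against 2 libraries allow. The 5 gained FOXA3 regions count as 0 in both DMSO libraries by definition, so the score partly restates the calls. Over called regions only, the FOXA3 difference was 15.6. FOXA2 scored 20.8 and 8.52 with DMSO and 22.7 and 27.4 with I-BET151, a difference of 10.4 in which the lower I-BET151 library was just above the higher DMSO library (exact permutation p = 0.333). FOXA1 scored 23.8 and 11.7 with DMSO and 15.3 and 29.1 with I-BET151, so the groups overlapped and the difference of 4.44 was within their SDs of 8.54 and 9.74 (exact permutation p = 0.667). Most genes scored higher with I-BET151: over the 19326 protein-coding genes with a region the median difference was 10.5 and 86.3% were above 0. Among these genes the FOXA1 difference stood at percentile 25.3, the FOXA2 difference at 49.6 and the FOXA3 difference at 88.8. With all deposited peaks, only the FOXA3 difference was thus well above the median gene. With peaks of a −log10 p of at least 10 alone, the FOXA2 difference of 23.1 was above the FOXA3 difference of 21.2. Differences between the 3 genes were not tested.

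**Figure D4:**
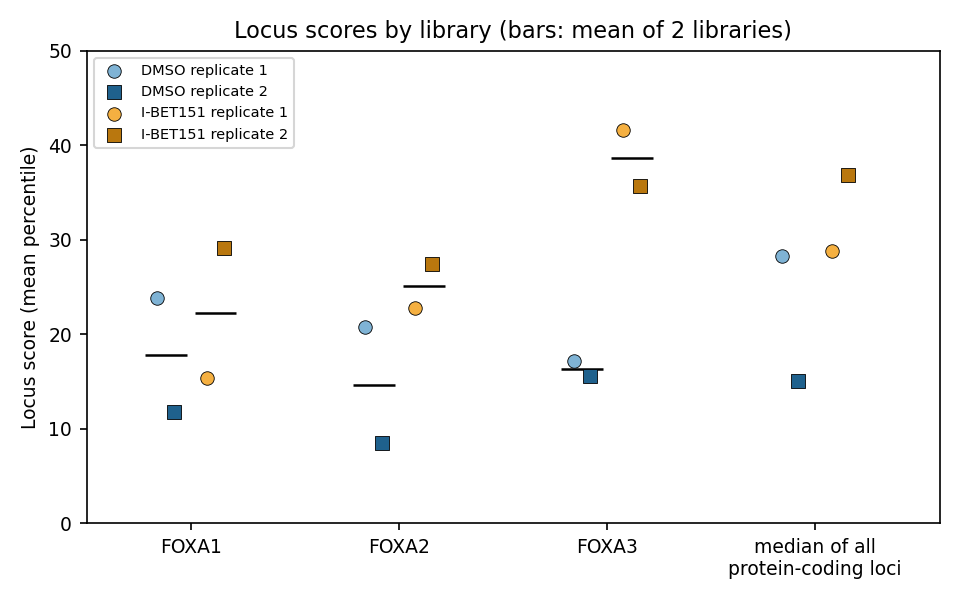
Locus score (mean percentile over the regions of a gene, y axis) of FOXA1, FOXA2 and FOXA3 and the median score of all protein-coding loci, 1 point per library, with bars at the mean of the 2 libraries of a group. The FOXA3 points with I-BET151, 41.6 and 35.7, lie above both DMSO points, whereas those of FOXA1 overlap.

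Over the 4 libraries the protein-coding genes with scores most like a member's were found by the Euclidean distance of the 4 scores. For FOXA1 the nearest of 17534 genes was GATA6, a zinc-finger factor needed for pancreas formation, with scores of 23.7 and 10.3 for DMSO and 16.1 and 29.1 for I-BET151 (distance 1.63), followed by PHOSPHO1 (1.87) and TXNDC11 (2.01). For FOXA2 the nearest were DAPK1 (0.998), DCLK1 (1.15) and PPFIA4 (1.29), and for FOXA3 EIF1AX (2.57), MMD (3.50) and SNX24 (3.69). The nearness is a description over 4 libraries, and the lower distances come from a large choice of genes.

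The loci also differed in sequence, which the choice of regions did not use. In the 201 bases around the summits the median GC content was 46.3% at FOXA1, 54.2% at FOXA2 and 63.2% at FOXA3, beside 48.3% over all regions, and the median number of CpG dinucleotides was 2.5, 3 and 13 beside 2. The FOXA1 −0.9 kb and FOXA3 −1.0 kb windows held 12 CpG each at 62.2% and 61.2% GC, the FOXA3 −47.0 kb window 10 at 62.7% and the 134 promoter bases of FOXA3 19, at a GC content of 79.9%. The FOXA2 +21.1 kb window, shown above among the distal regions, held 0 CpG at 40.8% GC.

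Exact motif letters were searched on either strand of these windows, and 1 of 10 FOXA3 windows held a match to any of the 8 motifs searched, the −16.2 kb window, whose matches lie outside the region itself. The counts were 3 of 10 windows at FOXA1 and 8 of 15 at FOXA2. FOX letters (TGTTTAC) were found in the windows of 1 of 35 members (2.86%) and of 4.63% of all regions, and the match was the one in the FOXA1 +48.2 kb region. GATA letters (AGATAA) were found in 4 members (11.4%) and 14.2% of all, HNF6 letters (ATTGAT) in 4 (11.4%) and 9.21%, and TEAD letters (GGAATG) in 5 (14.3%) and 15.0%. Homeobox letters (TAATTA) were found in 1 member (2.86%) and 4.67% of all, SOX letters (ACAATG) in 2 (5.71%) and 11.1%, AP-1 letters (TGANTCA) in 1 (2.86%) and 11.2%, and the CTCF consensus in 0 and 1.89%. The +48.2 kb region of FOXA1 held GATA and TEAD letters beside its FOX letters, 53 and 41 bases after the summit. A window without a match says only that these exact letters are not in it.

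Genes known to work with or under FOXA factors gave the surroundings for these values. The 12 endoderm and pancreas transcription factors counted here all had higher mean scores with I-BET151, by 2.41 for SOX17 to 21.1 for PROX1, with a median of 12.1 beside 10.5 for all genes. HNF4A, a nuclear receptor of endoderm, scored 47.0 and 34.8 with DMSO and 37.8 and 60.1 with I-BET151, and PDX1, the master factor of the pancreas, 24.1 and 15.2 against 29.2 and 38.1. Of the 154 regions of this list 28 were gained (18.2%) and 3 lost (1.95%), and of its 44 regions of all 4 lists limma moved 2 up and 0 down. Of the 10 liver genes with FOXA sites, such as ALB and TTR, 10 scored higher, with a median difference of 17.2, 22 of 133 regions gained (16.5%), 3 lost, 0 of 28 moved up in rank and 2 moved down. Of the 10 islet genes, such as INS and SLC2A2, 10 scored higher, with a median of 15.7, 21 of 101 regions gained (20.8%), 2 lost and 0 of 17 moved in either direction. The FOXA3 difference of 22.3 was above that of every one of these 32 genes, and the FOXA1 difference of 4.44 was above 2 of them.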

How the data were processed

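ATAC-seq peak lists of 4 libraries were used, grouped as DMSO or I-BET151 by the sample labels. The authors aligned reads to hg38 with Bowtie2 (2.2.5), filtered them with sambamba, picard and samtools, and called peaks in each library alone with MACS2 (2.1.2). Judged by their values, the deposited lists give for each peak its fold enrichment at the summit, which is a ratio over the background nearby, with the p-value and q-value as −log10. The weakest peaks had a q-value near 0.05 and p-values up to 0.00113, above the 1e-05 of the methods. The shortest peaks were 200 bp in both replicate 1 lists, 233 bp in DMSO replicate 2 and 256 bp in I-BET151 replicate 2.

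Overlapping peaks (1 bp or more) of the autosomes, X and Y were merged. Pileups were solved from the fold and the p-value and matched the deposited −log10 p within 0.01 in at least 99.9% of peaks. Fold was ranked within each list, because lists differ in depth and threshold. The 25627 regions of all 4 lists were ranked again among themselves in each list and tested with limma (3.58.1, R 4.3.3) on normal scores, with Benjamini-Hochberg adjustment over all of them, and locus scores with two-sided exact permutation tests (scipy 1.17.1, Python 3.11.15, pandas 2.3.3, pysam 0.24.0). Scripts were tested on simulated data. The text names, by rule, the regions near start sites, the regions of all 4 lists and the gained and lost regions, and the 3 genes with the nearest scores. Regions in other combinations named singly, and the genes named within lists, were chosen after their values were seen. The genes and lists were chosen with earlier results of these data known. Some listed genes are not reported here and were left out of the counts of their lists. Sequences are those of hg38.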

Additional observations from a re-analysis of the deposited data

How the results depend on the processing

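Counts of regions depended most on which lists and thresholds were used. The 7 gained member regions became 1 with equal numbers of peaks and 8 to 11 when 1 library was left out (11 without either I-BET151 library). The 2 lost regions became 0 at a −log10 p of at least 5, of at least 10 and with equal numbers of peaks, 1 at an overlap of 100 bp and 2 to 7 when 1 library was left out (7 without DMSO replicate 2). The 5 gained FOXA3 regions became 2 at a −log10 p of at least 10, 1 with equal numbers of peaks, and 5 to 7 when 1 library was left out. The shares of all merged regions under these alternatives are not given, so whether the counts changed more at these loci than elsewhere cannot be told. The cause was not tested.

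The FOXA3 and FOXA2 scores stayed higher with I-BET151 under every alternative run, the smallest differences being 8.48 for FOXA3 with equal numbers of peaks and 1.98 for FOXA2 in pair 1. With equal numbers of peaks the groups overlapped for both genes (exact permutation p = 0.667 each). The FOXA2 groups also overlapped within 5 kb and over called regions only (exact permutation p = 0.667 each). When 1 library was left out the differences were 19.3 to 23.1 for FOXA3 and 4.32 to 20.7 for FOXA2. The FOXA1 difference of 4.44 turned to −9.95 with equal numbers of peaks, to −8.95 within 5 kb, to −3.29 over called regions only, to −1.59 without DMSO replicate 2 and to −2.72 without I-BET151 replicate 2, with a range of −2.72 to 13.1 when 1 library was left out.

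As replicates share numbers in the labels, a fit with the replicate block was also made. Deviations of same-numbered libraries correlated at −0.143 over the 25627 regions, so this check showed no pairing by number. With 1 difference per group it cannot settle whether same-numbered libraries were handled together. With the replicate block limma called 985 regions up and 652 down, and 0 members. With the crossed pairing, chosen after seeing the data, it called 1985 up and 1567 down, and 0 members. Taken pair by pair, as a replicate block on the counts, pair 1 gave 10 gained and 11 lost members (28.6% and 31.4%, beside 28.1% and 26.8% of all regions), and pair 2 gave 17 and 2 (48.6% and 5.71%, beside 48.6% and 3.84%). The FOXA1 score difference was −8.48 in pair 1 and 17.4 in pair 2, so the pairs had opposite signs.

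The count of members changed in rank was 0 in every fit, all left-out libraries included, other than the 7 on log2 fold without centring, and 0 to 2 members had an unadjusted p under 0.05 in those other fits. Over all regions limma called 8 up and 27 down when ranked by −log10 p, and 117 to 1777 up and 119 to 1707 down when 1 library was left out. Single shifts changed sign, none past the threshold except where stated. On the uncentred log2 fold the FOXA1 +48.2 kb, FOXA1 start-site and FOXA2 start-site regions turned to 0.66, 0.38 and 0.74, the first and the last called by limma at adjusted p = 0.0254 and 0.0191. The FOXA2 start-site region also turned to 0.23 when ranked by −log10 p, 0.036 at a −log10 p of at least 10, 0.37 without DMSO replicate 2 and 0.24 without I-BET151 replicate 2, with −0.88 to 0.37 over the left-out libraries. The FOXA3 +22.5 kb region turned to −0.10 on the centred log2 fold and −0.22 without DMSO replicate 2 (−0.22 to 1.02 over the left-out libraries), and the FOXA3 +38.6 kb region to −0.033 without DMSO replicate 1 (−0.033 to 1.76). The weakest gained calls rest on pileups from 6 reads.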
